A study of Rattus norvegicus with 8 samples.

Results

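The genes of oxidative phosphorylation were followed in RNA sequencing libraries from the hippocampus of 8 Wistar rats, each of which gave 1 library. They were taken from the KEGG pathway column that the authors deposited beside each gene, and all genes carrying the term for oxidative phosphorylation in the rat were used, which gave 119 of 22601 genes. By their symbols, 36 belonged to complex I (NADH dehydrogenase), 4 to complex II (succinate dehydrogenase), 10 to complex III (the cytochrome bc1 complex), 20 to complex IV (cytochrome c oxidase), 4 to the assembly of complex IV and 15 to the ATP synthase. The vacuolar proton ATPase, which KEGG lists in the same pathway, held 24 genes, 13 of its cytosolic V1 sector and 11 of its membrane V0 sector with an accessory subunit. The last 6 were pyrophosphatases and proton-potassium ATPases. The mitochondrially encoded subunits were not analysed here.

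The study asked how kindling by pentylenetetrazole and later treatment with the anticonvulsant candidate Q808 change hippocampal transcripts. All rats were wild type and weighed 180 to 220 g when purchased, before any treatment, and their age was not given in the sources used here. Rats of the control group (Con., n = 3) received saline in place of pentylenetetrazole and later the solvent of Q808. Rats of the PTZ group (n = 3) received pentylenetetrazole, a convulsant that blocks GABA-A receptors, intraperitoneally at 35 mg/kg every 48 h for 28 days and at 60 mg/kg on the last day, and then the solvent of Q808. Rats of the Q808 group (n = 2) received the same pentylenetetrazole course, followed by 30 mg/kg Q808 by daily gavage for 28 days. Before killing, PTZ and Q808 rats were given 1 further sub-convulsive dose of pentylenetetrazole, so that both carried a recent dose that the Con. rats did not. The contrast of PTZ with Con. therefore holds kindling and the recent dose together, and that of Q808 with PTZ addresses the compound in kindled rats. The contrast of Q808 with Con. holds kindling, the recent dose and the compound together.

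Complexes I to IV of the inner mitochondrial membrane pass electrons from NADH and succinate to oxygen, and complexes I, III and IV pump protons as they do so. The ATP synthase lets the protons flow back and makes ATP, which neurons use above all to restore ion gradients after firing. The vacuolar ATPase works in the other direction. It spends ATP to pump protons into lysosomes, endosomes and synaptic vesicles, and the acid gradient of synaptic vesicles drives the loading of glutamate and GABA. Most subunits are made in every cell, while a few have isoforms bound to muscle, kidney, bone or secretory epithelia.

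Values were deposited as FPKM (fragments mapped to a transcript, divided by its length and by the total mapped), so that depth and gene length are already divided out and levels may be compared between genes. Read from the steps between low values, the relative depth of the libraries lay between 0.72 in PTZ-3 and 1 in Con.-2. The label hippocampus was checked on markers of dentate granule and CA pyramidal cells. Most were found in all libraries, although Tdo2 and Fibcd1 were at or near 0 in all 8, and 3 libraries, 1 of each group, stood apart. In Con.-3, PTZ-3 and Q808-1 the summed FPKM of 7 markers of striatal projection neurons was 739 to 1610, against 58.7 to 80.1 in the other 5, and 5 markers of CA pyramidal cells summed to 58.7 to 169 against 243 to 300. The 6 dentate markers summed to 46.1 to 125 against 152 to 196. Among them C1ql2 stood at 3.23 to 5.09 against 50.6 to 96.7, and Prox1 at 2.84 to 4.04 against 12.2 to 16.6. Calb1 (87.7, 112 and 26.0) and Plk5 (9.23, 5.42 and 12.6) were not lower in all 3. Nor was Ociad2, from the CA pyramidal list, at 33.1, 41.8 and 22.3 against 24.1 to 32.1 in the other 5. Oligodendrocyte markers (8 genes) summed to 7170 to 14000 in the 3 libraries and to 2770 to 4580 in the other 5. Values with and without these 3 libraries are given below. Leaving them out keeps 1 Q808 library, which is then assumed to vary like the other groups. Ttr, which encodes transthyretin and marks the choroid plexus, a secretory epithelium that lies against the hippocampus, was also uneven, at 87.4 to 2490 FPKM in Con., 271 to 475 in PTZ, and 156 and 6300 in Q808.

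Most oxidative phosphorylation genes were well expressed. The 119 genes took between 4.12% of the summed FPKM in Con.-3 and 4.66% in PTZ-3. A mean of at least 10 FPKM was reached by 93 of them, with a median level of 135 FPKM, and 110 passed the minimum mean of 0.1 FPKM used for testing. The highest level was that of Cox4i1, the ubiquitous subunit 4 of complex IV, at 806, 745 and 688 FPKM in Con., 754, 730 and 914 in PTZ, and 820 and 747 in Q808. The catalytic subunit of the ATP synthase, Atp5f1b, stood at 687, 725 and 701 FPKM in Con., 693, 720 and 712 in PTZ, and 624 and 697 in Q808. Both varied by less than 1.4-fold over the 8 libraries and their groups overlapped.

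Levels followed the class. Among members with at least 10 FPKM, the median was 314 FPKM for the 11 genes of complex IV, 284 for the 14 of the ATP synthase, 173 for the 9 of V1, 168 for the 7 of V0, 119 for the 9 of complex III, 114 for the 34 of complex I and 102 for the 4 of complex II. The most abundant member of complex I was Ndufb9 (mean 279 FPKM), of complex II Sdha (117), of complex III Uqcr11 (253), of V1 Atp6v1e1 (297) and of V0 Atp6v0c (511). Sdha, the flavoprotein of succinate dehydrogenase, was the steadiest of these, at 111, 121 and 122 FPKM in Con., 119, 120 and 114 in PTZ, and 109 and 118 in Q808.

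Other core subunits varied by 1.20-fold to 1.40-fold over the 8 libraries, against 1.12-fold for Sdha. Ndufs1 and Ndufv1, which carry iron-sulphur clusters and the NADH site of complex I, stood at 68.0 to 84.1 and 106 to 133 FPKM over the 8 libraries. Sdhb, the iron-sulphur subunit of complex II, stood at 99.2 to 119, Uqcrfs1, the Rieske protein of complex III, at 108 to 131, its partner Cyc1, cytochrome c1, at 112 to 138, and Atp5f1a, the alpha subunit of the ATP synthase, at 298 to 417. None of these 6 differed between any pair of groups by more than 0.21 on the log2 scale, and their limma p-values were 0.386 or higher.

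Tissue-restricted isoforms lay far below their common partners. Cox4i2, an isoform of lung and of vessel wall cells, was at 1.22 to 2.43 FPKM, and Cox8b, the heart and muscle isoform of subunit 8, at 1.02 to 23.4 against 384 to 530 for Cox8a. Cox6a2, the muscle isoform of subunit 6A, which is also known in fast-spiking interneurons, was at 0.12 to 2.78 FPKM against 501 to 689 for Cox6a1, and the testis isoform Cox6b2 at 1.33 to 5.53. Ndufa4l2, a hypoxia-responsive relative of Ndufa4, was at 2.03 to 5.69 FPKM against 228 to 303 for Ndufa4. For the vacuolar ATPase, the brain isoforms Atp6v1b2 (136 to 325 FPKM), Atp6v1g2 (173 to 287) and Atp6v0a1 (79.0 to 165) were well expressed. So was Atp6v1g1, the isoform of all tissues beside Atp6v1g2, whose values are given below. The kidney isoforms Atp6v1b1 and Atp6v1g3 were listed at 0 in all 8 libraries, Atp6v1e2 and Atp6v0d2 stayed below a mean of 0.1 FPKM, and Atp6v1c2 (0.62 to 1.68) and Atp6v0a4 (1.27 to 2.26) were low. Tcirg1, the a3 isoform of osteoclasts and of phagocytic cells, was at 2.98 to 6.32.

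A pair of obligate subunits were listed far below their partners. Ndufa1, a small subunit of complex I, was at 0.58 to 1.91 FPKM and Atp5pb, the peripheral stalk of the ATP synthase, at 1.15 to 1.81, while all other ATP synthase members lay above 91. Whether reads were shared with other copies of these genes was not tested, and the values of Ndufa1 and Atp5pb, and of the copy-like genes Ndufa10l1, Ndufs6-ps1, Uqcr10-ps1 and Cox7a2l2, are uncertain. A second row named as the subunit of Ndufa1, outside the list, stood at 0.131, 0.441 and 0.396 FPKM in Con., 1.45, 0.707 and 0.919 in PTZ, and 0.453 and 0.252 in Q808. This row was lower in Q808 than in PTZ, while Ndufa1 was higher. A row named as a relative of ATP synthase subunit b, which Atp5pb encodes, stood at 0.877 to 1.84 FPKM.

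Between PTZ and Con., no oxidative phosphorylation gene passed the test. limma, with empirical Bayes and a trend, was run on log2(FPKM + 0.1) of 15593 genes, of which 3.78% had an unadjusted p under 0.05, while the count among the 110 members was 0, in either direction. Adjusted p-values of the members were all 0.999. The median log2 difference of the members, PTZ minus Con., was 0.01, beside -0.04 for all genes tested, with 67 members above zero and 43 below. By class it ran from -0.12 for the 4 tested pyrophosphatases and proton-potassium ATPases and -0.04 for the assembly of complex IV to 0.06 for complex III. It was 0.00 for complex II, 0.01 for the ATP synthase, 0.03 for V1 and 0.05 for V0. The median 95% interval of a member was 0.38 to either side on the log2 scale, which is 1.30-fold, and for 102 of 110 members the whole interval lay within 2-fold.

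The lowest p among the members was that of Cox8b. It stood at 2.86, 6.12 and 1.55 FPKM in Con. and at 1.02, 1.78 and 1.29 in PTZ, with overlap through Con.-3, and the log2 difference was -1.13 (SE 0.50, unadjusted limma p = 0.057, adjusted p = 0.999, exact permutation p = 0.20). With the replicate number as a block, which pairs Con. and PTZ rats of equal number, 1 member had a p under 0.05 (background 6.3%), again Cox8b (-1.13, adjusted p = 0.742 in limma). Groups did not overlap for 2 members, both higher in PTZ, beside 4.11% of all genes tested higher and 5.03% lower. These were Lhpp, a phosphatase, at 17.9, 18.7 and 17.7 FPKM in Con. and 19.8, 19.4 and 26.8 in PTZ (log2 difference 0.26, SE 0.16), and Uqcrc1, a core subunit of complex III, at 112, 112 and 112 in Con. and 118, 123 and 118 in PTZ (0.10, SE 0.10), both with an exact permutation p of 0.10, the smallest that 3 against 3 libraries allow, and both picked here after their values were seen.

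**Figure D1:**
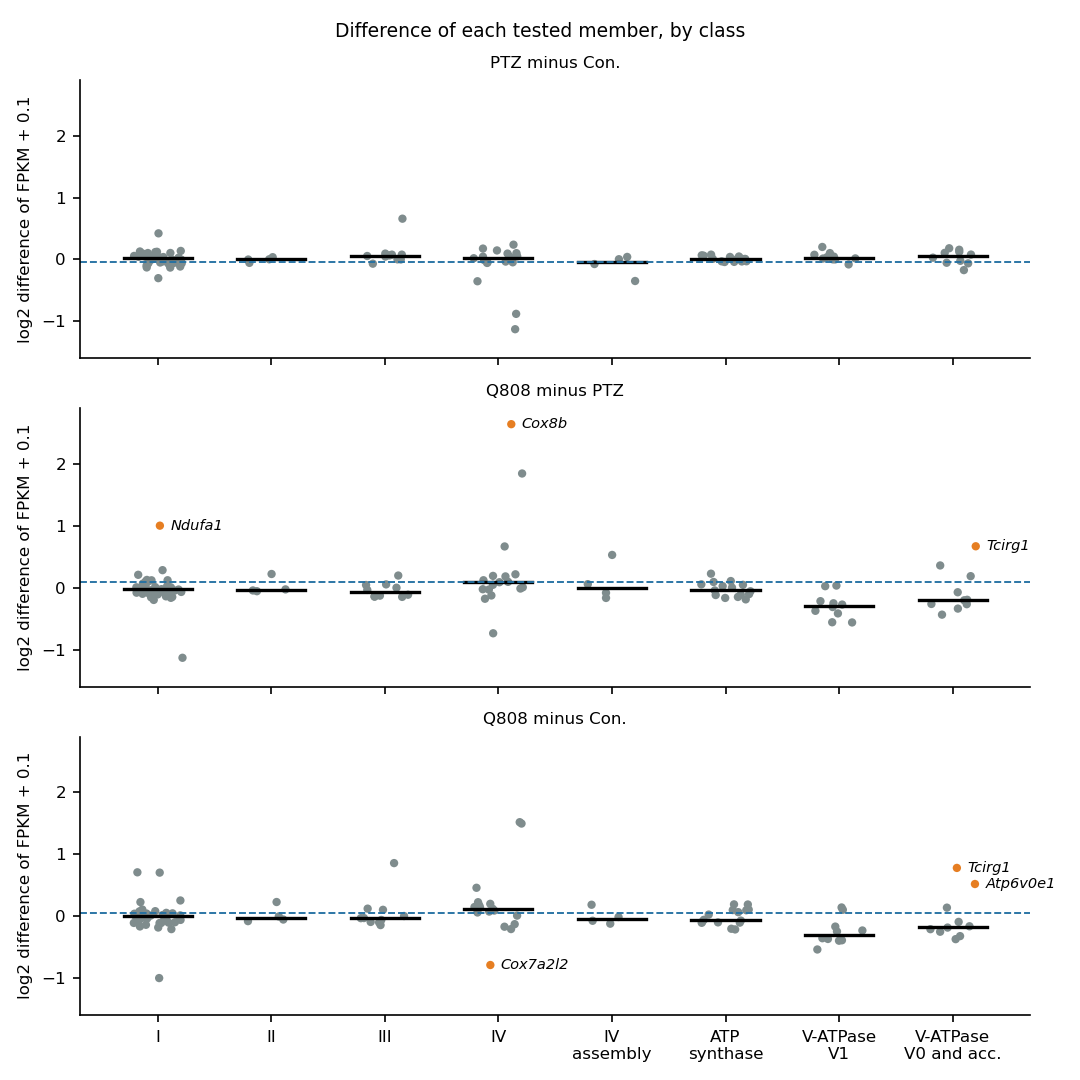
Log2 difference of FPKM + 0.1 of each tested member (points) by class on the horizontal axis, for PTZ minus Con., Q808 minus PTZ and Q808 minus Con. from top to bottom. Black bars are class medians, the dashed line is the median of all genes tested, and orange points with names have an unadjusted limma p under 0.05: 0, 3 and 3 members. The bars of both vacuolar ATPase classes lie below the dashed line in the lower panels, at -0.29 and -0.20 for Q808 minus PTZ.

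Without Con.-3, PTZ-3 and Q808-1, 13 members had a p under 0.05 between PTZ and Con., all lower in PTZ, which is 11.8% of the 110 members beside 13.3% of all genes tested in that direction. Of these, 10 were subunits of complexes I to V (Atp5pd, Atp5me, Cox6b2, Cox8b, Ndufa6, Ndufab1, Ndufb7, Ndufc1, Ndufs3 and Uqcrq), 1 was Atp6v1d, and Atp4a and Ppa2 made up the rest, all with limma's adjusted p of at least 0.112. The members' median difference was -0.13, with 93 of 110 negative, beside -0.11 for all genes. In the pair of high-striatal libraries the sign was the other way. PTZ-3 minus Con.-3 gave a median of 0.36 for complexes I to V, with 75 of 82 positive, 0.25 above that of all genes, and ribosomal protein genes were 0.43 above it. With 1 library on each side this difference has no replicate check.

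Between Q808 and PTZ, 3 members had a p under 0.05 and all 3 were higher in Q808, namely Cox8b, Tcirg1 and Ndufa1. That is 3 of 110 members beside a background of 2.19% of all genes tested, 1.51% higher in Q808, and all 3 also passed 1.5-fold, for which the background in that direction was 1.36%. No member, and 0 of the 15593 genes, had an adjusted p under 0.05 in limma, and the members' lowest was 0.952. Without the 3 high-striatal libraries the count was 5, all higher in Q808 (Atp4a, Cox6a2, Cox6b2, Cox8b and Tcirg1), beside 11.7% of all genes. The members' median log2 difference, Q808 minus PTZ, was -0.03, beside 0.10 for all genes tested and -0.00 for the 6409 genes with at least 10 FPKM, with 47 members positive and 63 negative. Groups did not overlap for 8 members higher in Q808 and 8 lower, beside 10.6% and 5.02% of all genes tested. Each pair of comparisons shares the libraries of 1 group, so a low value in PTZ enters both of those with PTZ.

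Cox8b (GeneID 25250) stood at 3.30 FPKM in Q808-1 and 23.4 in Q808-2, above all 3 PTZ libraries. The log2 difference was 2.64 (SE 0.79, 95% interval 0.73 to 4.55, unadjusted limma p = 0.0144, adjusted p = 0.952, exact permutation p = 0.10), and Q808-2 was far above Q808-1. Ttr, Folr1, Kl and Kcnj13, the markers of choroid plexus, were highest in the same library, with a summed level of 6380 FPKM in Q808-2 against 159 in Q808-1, 274 to 482 in PTZ and 90.1 to 2520 in Con., and none of the 4 was at 0. Their part in the value of Cox8b was not tested. Without Q808-2 the difference was 1.25 and its unadjusted p was above 0.05, and without the 3 high-striatal libraries it was 4.01 (adjusted p = 0.0516 in limma). From Con., Cox8b differed by 1.52 (SE 0.94, adjusted p = 0.901 in limma), and the groups overlapped.

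Tcirg1 (GeneID 293650), the a3 subunit of the vacuolar ATPase, stood at 3.19, 2.98 and 3.61 FPKM in Con., 3.29, 3.37 and 3.88 in PTZ, and 6.32 and 5.02 in Q808. Both Q808 libraries lay above all 6 others. The log2 difference from PTZ was 0.67 (SE 0.26, unadjusted limma p = 0.0375, adjusted p = 0.952, exact permutation p = 0.10). From the Con. libraries it was 0.78 (SE 0.22, unadjusted limma p = 0.0128, adjusted p = 0.901, exact permutation p = 0.10). An exact p of 0.10 is the smallest that 2 against 3 libraries allow. Microglial markers (5 genes, none at 0) summed to 93.0 to 111 FPKM in Con., 90.8 to 157 in PTZ, and 237 and 124 in Q808, highest in Q808-1 as was Tcirg1, and their part was not tested. The unadjusted p of Tcirg1 was above 0.05 against PTZ without PTZ-1, PTZ-2 or Q808-1, with differences of 0.62, 0.64 and 0.51, and against Con. without Con.-2 or Q808-1, with 0.72 and 0.61. Against PTZ it was also above 0.05 after quantile normalization (0.53). Without the 3 high-striatal libraries Tcirg1 was 0.58 above PTZ and 0.69 above Con., with an unadjusted p under 0.05 in both.

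Ndufa1 has an uncertain low level and a second row that went the other way, as said above. Its listed values were 0.66, 1.67 and 0.83 FPKM in Con., 0.76, 1.04 and 0.58 in PTZ, and 1.91 and 1.43 in Q808. The difference from PTZ was 1.00 (SE 0.40, unadjusted limma p = 0.0424, adjusted p = 0.952, exact permutation p = 0.10), and the Con. values overlapped both groups. Its unadjusted p was above 0.05 without PTZ-1, PTZ-3, Q808-1 or Q808-2, with differences of 0.99, 0.82, 0.81 and 1.20, and without the 3 high-striatal libraries, with 0.63. The same held under median ratio scaling (0.91), upper quartile scaling (0.96) and quantile normalization (0.76), with the replicate block (0.82) and with a minimum mean of 1 FPKM. Cox6a2 stood at 0.402, 0.339 and 0.541 FPKM in Con., 0.248, 0.121 and 0.785 in PTZ, and 2.78 and 0.646 in Q808, with overlap through PTZ-3. Its difference from PTZ was 1.85 (SE 0.81, unadjusted limma p = 0.062, exact permutation p = 0.30). The highest value came with the highest Pvalb, a marker of fast-spiking interneurons, at 118 FPKM in Q808-1 against 25.4 to 63.1 elsewhere. Kcnc1 and Syt2, from the same list, were not highest there. Kcnc1 stood at 16.6 FPKM in Q808-1 against 25.9 in PTZ-2, and Syt2 at 8.54 against 14.8 in Con.-3. The 3 interneuron markers summed to 143 in Q808-1, mostly from Pvalb, and to 45.4 to 93.7 in the other libraries. A link was not tested.

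**Figure D2:**
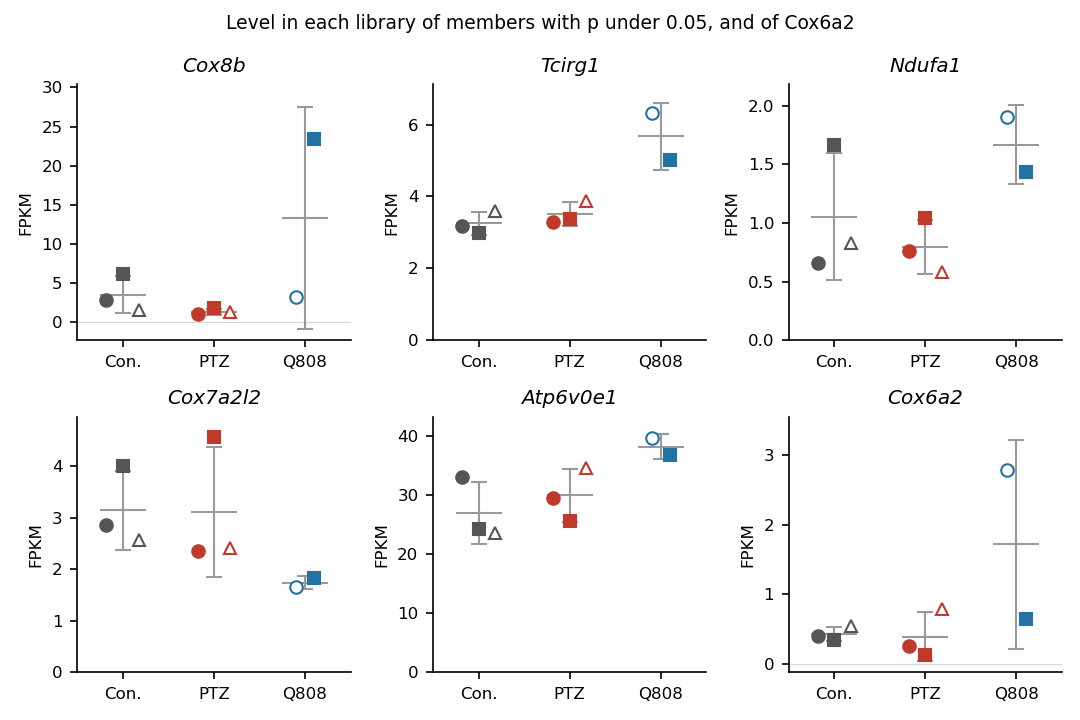
FPKM (vertical axes, from 0 except for Cox8b, whose error bar reaches below it) of the 5 members with an unadjusted limma p under 0.05 in a comparison with Q808, and of Cox6a2, in each library. Circles, squares and triangles are replicates 1, 2 and 3, open symbols are the libraries with high striatal markers, and grey bars are mean and SD. Both Q808 libraries lie above all others for Tcirg1, and 1 Q808 library sets the mean of Cox8b and of Cox6a2.

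Between Q808 and Con., 3 members had a p under 0.05, which were Tcirg1, Atp6v0e1 and Cox7a2l2, beside a background of 4.28% of all genes tested, 3.68% higher and 0.596% lower in Q808. Of these, 2 passed 1.5-fold, where the background was 3.46%. The lowest adjusted p of the members was 0.901 in limma, and 0.00641% of all genes, which is 1 gene, had one under 0.05. Without the 3 high-striatal libraries 3 members were called (Cox8b, Tcirg1 and Uqcr11), beside 5.9% of all genes. Atp6v0e1 (GeneID 94170), a small V0 subunit, stood at 33.0, 24.2 and 23.6 FPKM in Con., 29.5, 25.6 and 34.6 in PTZ, and 39.6 and 36.7 in Q808. The groups did not overlap, and the difference was 0.52 (SE 0.19, unadjusted limma p = 0.04, adjusted p = 0.901, exact permutation p = 0.20). Cox7a2l2, a copy-like gene of complex IV, was lower in Q808, at 1.65 and 1.83 FPKM against 2.85, 4.01 and 2.56 in Con. and 2.35, 4.57 and 2.41 in PTZ, a log2 difference of -0.79 from the Con. libraries (SE 0.28, unadjusted limma p = 0.0318, adjusted p = 0.901, exact permutation p = 0.10). For Atp6v0e1 the unadjusted p was above 0.05 without Con.-2, Con.-3, Q808-1 or Q808-2, with differences of 0.43 to 0.57, and for Cox7a2l2 without Con.-1, Con.-2, Q808-1 or Q808-2, with -0.87 to -0.61. Both also had it above 0.05 without the 3 high-striatal libraries, at 0.38 and -0.85. So did Atp6v0e1 under median ratio scaling (0.47), in limma without the trend and with the replicate block (0.43), and Cox7a2l2 with all 3 groups in the fit. Groups did not overlap for 5 members higher and 6 lower in Q808 than in Con., beside 13.3% and 6.71% of all genes tested.

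The medians of the respiratory complexes lay near zero between Q808 and Con. The median difference of the 82 tested members of complexes I to V was 0.01, with 44 positive and 38 negative. Complex IV had the highest class median, 0.12, and Cox5b, a nuclear-encoded subunit of complex IV picked here after its values were seen, had 408 to 422 FPKM in Q808 against 272 to 327 in Con., with 1 of 3 PTZ libraries above both (0.46, SE 0.19, unadjusted limma p = 0.0564, exact permutation p = 0.10). The median 95% interval of a member was 0.50 to either side on the log2 scale, or 1.41-fold, and 90 of 110 intervals lay within 2-fold. For most members a difference smaller than this could not be told from zero with 2 Q808 libraries.

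The vacuolar ATPase differed from the respiratory chain in how far it varied between libraries. Of its 20 tested genes, 15 were lower in Q808 than in PTZ, with a median of -0.26, which is 0.35 below that of all genes, and the medians were -0.29 for V1 and -0.20 for V0. Among genes with at least 10 FPKM, the median was -0.27 for the 16 of the vacuolar ATPase and -0.00 for all genes. Against Con. the median of the 20 tested genes was -0.22, again with 15 of 20 negative. None of the lower ones had a p under 0.05 in the test of either comparison. Atp6v1a, the catalytic subunit of V1, stood at 159, 182 and 98.8 FPKM in Con., 158, 174 and 108 in PTZ, and 61.2 and 156 in Q808. The low values were those of Con.-3, PTZ-3 and Q808-1, and the second Q808 library was level with the high ones. The difference from PTZ was -0.56 with an SE of 0.42 (unadjusted limma p = 0.234, exact permutation p = 0.50).

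In 12 of the 16 vacuolar ATPase genes with at least 10 FPKM, these 3 libraries were the lowest. The same held for 920 of all 6409 genes with at least 10 FPKM. Atp6v1b2, the second subunit of the catalytic ring, stood at 253, 294 and 200.5 FPKM in Con., 284, 325 and 246 in PTZ, and 136 and 271 in Q808. Atp6v0a1, the brain isoform of the subunit that anchors V1 to the membrane, stood at 129.8, 143 and 105 in Con., 149, 165 and 103 in PTZ, and 79.0 and 147 in Q808. The proton-carrying ring subunit Atp6v0c stood at 586, 549 and 385 in Con., 582, 616 and 502 in PTZ, and 319.6 and 546 in Q808. For each of these, every high-striatal library lay below all other 5.

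**Figure D3:**
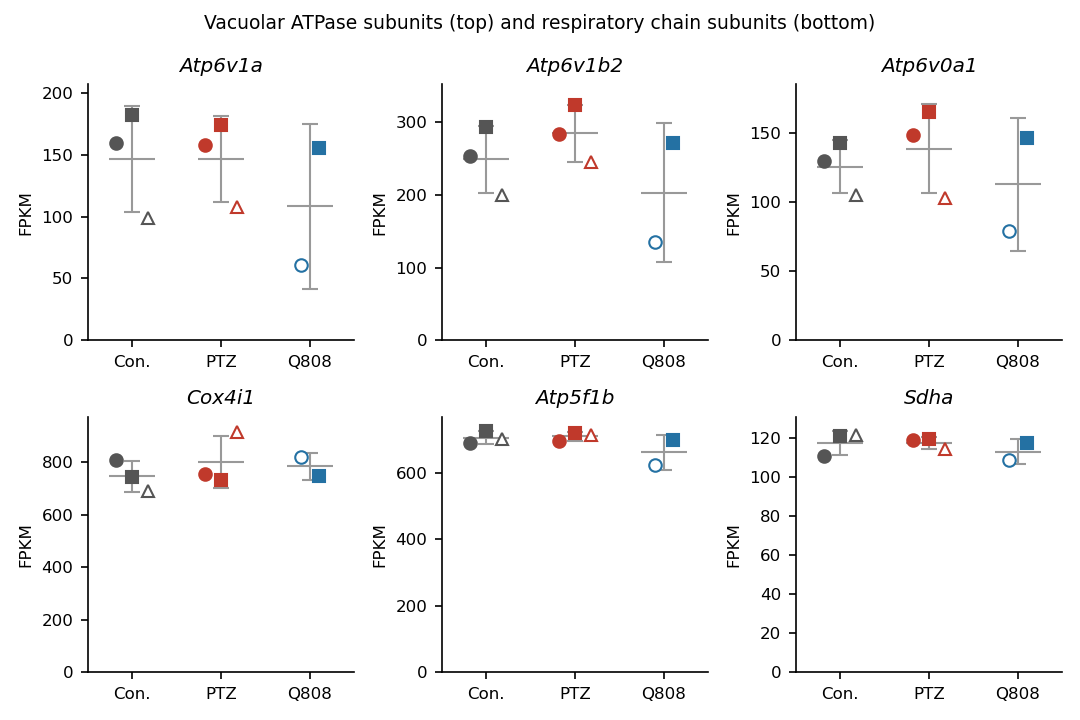
FPKM (vertical axes, from 0) in each library of the vacuolar ATPase subunits Atp6v1a, Atp6v1b2 and Atp6v0a1 in the top row and of Cox4i1, Atp5f1b and Sdha in the bottom row. Symbols mark replicates 1 to 3 as circle, square and triangle, open symbols are the 3 libraries with high striatal markers, and grey bars are mean and SD per group. In the top row all open symbols lie below all filled ones, with Atp6v1a at 61.2 FPKM in Q808-1, and in the bottom row they do not.

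Counted over the class, 12 of the 20 tested vacuolar ATPase genes lay lower in all 3 high-striatal libraries than in any of the other 5, 6 of V1 and 6 of V0, beside 9.59% of all genes tested. For complexes I to V the count was 4 of 82 (Ndufa12, Ndufa10, Cyc1 and Atp5f1d). The median log2 difference of these 3 libraries from the other 5 was -0.40 for the vacuolar ATPase and -0.03 for complexes I to V, beside 0.10 for all genes. The 12 were Atp6v1a (-0.93), Atp6v0a1 (-0.62), Atp6v1b2 (-0.59), Atp6v0c (-0.54), Atp6v1e1 (-0.54), Atp6v1c1 (-0.53), Atp6v0e2 (-0.49), Atp6v0d1 (-0.43), Atp6v1h (-0.41), Atp6v1g2 (-0.41), Atp6ap1 (-0.40) and Atp6v0b (-0.28). These sets of libraries were made from the data and are no groups of the study, so the values are given without a test.

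Neuronal markers went the same way. The 5 markers of neurons, none of them at 0, summed to 973 to 1530 FPKM in the 3 libraries and to 2150 to 2470 in the other 5, and Slc17a7, the vesicular glutamate transporter of hippocampal excitatory cells, was at 136 to 230 against 635 to 727. Their part in the vacuolar ATPase values was not tested. In such bulk tissue, fewer cells of a type and less RNA per cell cannot be told apart. Not all subunits followed. Atp6v1g1, the isoform of all tissues beside the neuronal Atp6v1g2, had its highest value in PTZ-3 (203 FPKM) and stood at 137 in Con.-3 and 167 in Q808-1, within the 131 to 161 of the other 5 or above it. Tcirg1 and Atp6v0e1 were highest in Q808-1.

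As a contrast within each library, the mean log2 level of the 16 vacuolar ATPase genes with at least 10 FPKM minus that of the 72 genes of complexes I to V was 0.20, 0.29 and 0.08 in Con., 0.32, 0.38 and -0.05 in PTZ, and -0.28 and 0.27 in Q808. A single scaling factor per library cancels almost wholly from this contrast. The groups overlapped, the Q808 libraries held both the lowest value and one within the Con. and PTZ ranges, and in each group the high-striatal library was the lowest. Between the library pairs outside that set, Q808-2 against PTZ-1 and PTZ-2, the vacuolar ATPase median was -0.04, 0.20 below that of all genes. For Q808-1 minus PTZ-3 it was -0.41, with 17 of 20 genes negative. Other lists were mostly negative in that pair too. Complexes I to V had 64 of 82 genes negative, with a median of -0.18. Of the proteasome genes 42 of 42 were negative (-0.37), and the median of all genes was -0.065. For Q808-2 against PTZ-1 and PTZ-2, the medians of genes with at least 10 FPKM were -0.052 for the vacuolar ATPase and 0.065 for all genes. Leaving out Q808-2 turned 10 vacuolar ATPase genes to a p under 0.05, all lower in Q808-1 than in PTZ, beside 4.98% of all genes lower in that fit. They included Atp6v1b2 (-1.06), Atp6v1c1 (-0.79) and Atp6v1a (-1.23), with limma's adjusted p-values of at least 0.524. Leaving out Q808-1 gave none.

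**Figure D4:**
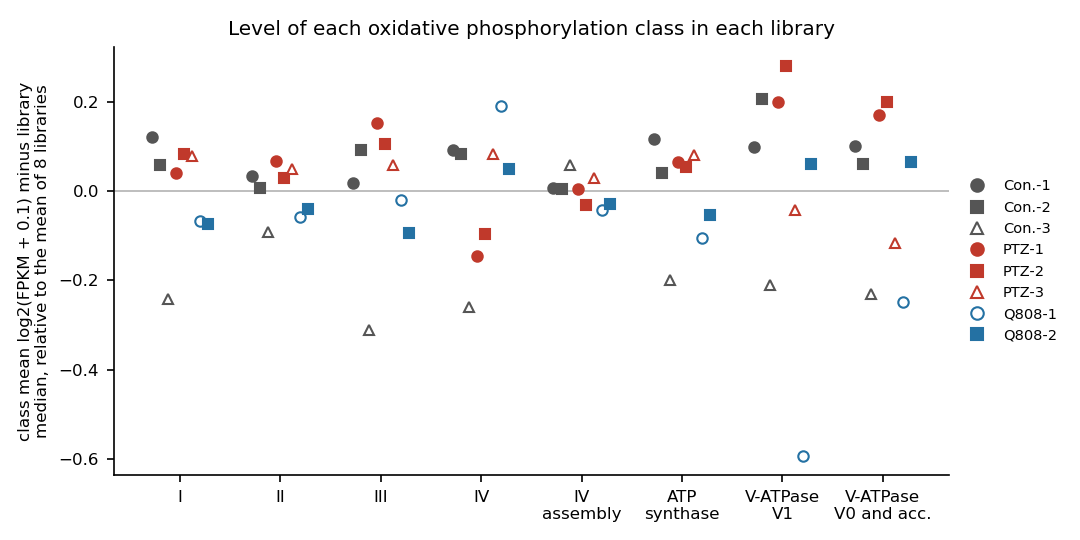
Mean log2(FPKM + 0.1) of each class in each library after subtracting the library's median over all genes tested and the mean of the 8 libraries (vertical axis, log2 units), by class on the horizontal axis. Colours are the groups, symbols the replicate numbers, and open symbols the 3 libraries with high striatal markers. Q808-1 is lowest in both vacuolar ATPase classes and highest in complex IV, and Con.-3 is lowest in complexes I to IV and in the ATP synthase.

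Under the 5 scalings tried, the sign of the members' median relative to all genes was not stable. The sign of the vacuolar ATPase median itself was stable in both comparisons with Q808. With the deposited FPKM, the members' median minus that of all genes was 0.05 for PTZ against Con., -0.13 for Q808 against PTZ and -0.07 for Q808 against Con. After quantile normalization the values were -0.01, 0.03 and 0.01, opposite in sign in all 3 comparisons. Under median ratio scaling, which sets the median gene to about zero, they were 0.06, -0.13 and -0.08. For the vacuolar ATPase alone, the values are list medians from which that of all genes was not subtracted. For Q808 minus PTZ they ran from -0.18 with quantile normalization to -0.35 with median ratio scaling, and for Q808 minus Con. from -0.18 to -0.27. Without the 3 high-striatal libraries these medians were -0.04 and -0.06.

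**Figure D5:**
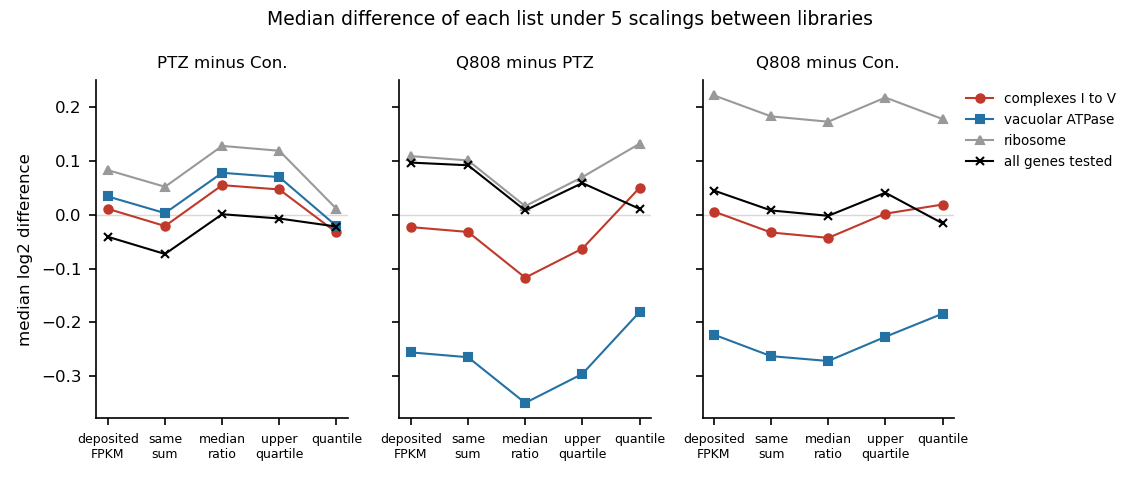
Median log2 difference (vertical axis) of complexes I to V, the vacuolar ATPase, ribosomal protein genes and all genes tested under 5 scalings between libraries (horizontal axis), for the 3 comparisons from left to right. The vacuolar ATPase line stays between -0.18 and -0.35 in both comparisons with Q808, and the line of complexes I to V crosses that of all genes at quantile normalization.

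Genes that build or regulate the same complexes were described by the same counts. Of all genes tested, 3.78% had an unadjusted limma p under 0.05 for PTZ against Con. The share was 2.19% for Q808 against PTZ and 4.28% for Q808 against Con. The medians of all genes were -0.04, 0.10 and 0.045 in that order. Counts of 0 in lists this short lie near these shares. Of 39 tested assembly factors outside the pathway, such as the chaperones of complexes I and IV, 0 had a limma p under 0.05 in any of the 3 comparisons, and their medians were -0.05, -0.02 and -0.09 for PTZ minus Con., Q808 minus PTZ and Q808 minus Con. Of 11 genes for carriers and exchange, such as cytochrome c and the adenine nucleotide carriers, 0 did, with medians of 0.01, -0.16 and -0.08. Of 13 tested genes for assembly and regulation of the vacuolar ATPase, 0 did, with medians of -0.06, -0.15 and -0.15. Of 12 regulators of mitochondrial biogenesis, with medians of -0.21, 0.10 and -0.10, 1 did, in PTZ against Con. only, Ppargc1b, a coactivator of respiratory genes that was picked here after its values were seen. It stood at 1.25, 2.02 and 3.79 FPKM in Con., 1.20, 1.15 and 0.68 in PTZ, and 1.47 and 1.53 in Q808. PTZ minus Con. was -1.05 (SE 0.44, adjusted p = 0.999 in limma, unadjusted p just under 0.05), with the highest value in Con.-3 and the lowest in PTZ-3. Without Con.-3 it was -0.65, and without the 3 high-striatal libraries -0.41, both with an unadjusted p above 0.05. The p was also above 0.05 with the replicate block and under each of the other 4 scalings.

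Promoters of the members were searched for letters known from respiratory and lysosomal genes. In the RefSeq promoter table of the GRCr8 assembly, 99 of the 119 members matched by GeneID, with 300 bases each, 250 before the start of the gene and 50 after it, and both strands were searched. The letters GCGCATGC of NRF1, a factor known for respiratory chain genes, were found in 10 of 99 members (10.1%) against 2.77% of 27457 genes, in 4 of 14 ATP synthase genes and in 1 of 19 of the vacuolar ATPase. The letters AAGATGGCG of YY1 were found in 12 of 99 (12.1%) against 1.99%, and CCGGAAGT of GABPA in 8 of 99 (8.08%) against 4.20%, with 0 of 19 in the vacuolar ATPase. The CLEAR letters TCACGTGA, bound by TFEB at lysosomal genes, were found in 3 of 99 (3.03%) against 0.896%, in Atp6v0d1, Atp6v0e1 and Ndufa7. A match of letters is a description of the window, and no factor was measured here.

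The 140 bases before the start are shown for 5 members, chosen to give each motif and both kinds of proton pump, on the strand of the gene and with the motifs in capitals. Uqcrc1 (chr8:118468083-118468222, plus strand) and Atp5me (chr14:1464720-1464859, plus strand) hold NRF1 letters, in Atp5me as 2 matches on opposite strands that overlap. Cox5b (chr9:46417697-46417836, plus strand) holds GABPA letters close to the start. Atp6v0d1 (chr19:50357249-50357388, minus strand) holds NRF1 and then CLEAR letters, and Atp6v0a1 (chr10:86436001-86436140, plus strand) holds YY1 letters.
Uqcrc1: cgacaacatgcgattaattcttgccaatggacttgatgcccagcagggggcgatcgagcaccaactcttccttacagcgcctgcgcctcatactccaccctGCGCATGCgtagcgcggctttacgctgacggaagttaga
Atp5me: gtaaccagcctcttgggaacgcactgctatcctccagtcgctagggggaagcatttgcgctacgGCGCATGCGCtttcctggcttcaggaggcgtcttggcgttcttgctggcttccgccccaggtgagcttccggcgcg
Cox5b: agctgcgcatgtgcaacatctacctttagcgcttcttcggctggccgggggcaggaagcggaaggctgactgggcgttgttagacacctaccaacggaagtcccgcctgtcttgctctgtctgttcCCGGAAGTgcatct
Atp6v0d1: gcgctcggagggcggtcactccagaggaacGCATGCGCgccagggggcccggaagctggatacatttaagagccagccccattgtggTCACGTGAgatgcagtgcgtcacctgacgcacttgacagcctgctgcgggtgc
Atp6v0a1: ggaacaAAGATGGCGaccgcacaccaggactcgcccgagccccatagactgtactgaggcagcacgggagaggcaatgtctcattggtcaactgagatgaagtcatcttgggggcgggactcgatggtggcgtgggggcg

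Of the members with CLEAR letters, Atp6v0d1 was among the 12 vacuolar ATPase genes that lay lower in the 3 high-striatal libraries, and Atp6v0e1 and Ndufa7 were not. Atp6v0a1, with YY1 letters, was also among the 12. Ndufa7, a subunit of complex I picked here after the search, stood at 141, 131 and 107 FPKM in Con., 127, 123 and 143 in PTZ, and 119 and 134 in Q808, and its groups overlapped.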

How the data were processed

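Per the labels and the study's methods, mRNA of bilateral hippocampus was captured on beads and sequenced on a BGI T7 instrument, reads were trimmed with Trimmomatic, and the authors deposited 1 table of FPKM values per rat, computed with Cufflinks, beside gene annotation columns. HISAT2, HTSeq, Bowtie2, StringTie and SAMtools are also named, with no role or version, in the submitters' processing notes. The genome build was not given in the sources used here. FPKM holds no read counts, so counting error was not computed and no count test was run here. Relative depth was read from ratios of values up to 0.1 FPKM, of which 99.0% to 99.8% were whole within 0.005.

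The 119 members were all genes with the KEGG term, and 2 carried no symbol. The members and lists were chosen with earlier results of these data known. Values were tested as log2(FPKM + 0.1), a scale that understates changes of low genes, over the 15593 genes with a mean of at least 0.1 FPKM, with limma 3.58.1 in R 4.3.3 (trended empirical Bayes, 2 groups per fit, two-sided, Benjamini-Hochberg over all genes tested). A member was called at an unadjusted p under 0.05. Exact permutation tests over libraries were two-sided. Summaries were made with Python 3.11.15 (scipy 1.17.1, pandas 2.3.3, numpy 2.4.6) and figures with matplotlib 3.10.9, and scripts were tested on simulated data. Named genes were the called members (up to 10 per comparison), the most abundant of each class, isoform pairs, fixed core subunits and members past 1.5-fold, and any other is said to be picked after its values were seen. Samples were grouped by their labels, with rats as replicates.

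Con. and PTZ libraries of equal replicate number deviated together (r = 0.212, 0.299 and 0.422 across genes, which are not independent), and were treated as pairs in the blocked fit. Con.-2 also went with PTZ-1 (0.322), and both number 3 libraries had high striatal markers. Alternatives were other scalings, pseudocounts, filters and fits, and leaving out libraries.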

Additional observations from a re-analysis of the deposited data

How the results depend on the processing

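The count of members with an unadjusted limma p under 0.05 was 0 for PTZ against Con., and became 1 under median ratio scaling (Lhpp), 1 after rescaling to the same sum (Cox6b2), 1 with the replicate block (Cox8b) and 13 without the 3 high-striatal libraries, beside 4.45%, 4.37%, 6.3% and 19.6% of all genes. Leaving out 1 library gave 0 to 3, with 1 without Con.-2, 3 without Con.-3 and 2 without PTZ-3, where 2.19%, 6.22% and 11.9% of all genes were called. For Q808 against PTZ the count was 3, and became 5 with the replicate block (4.55% of members, 12.9% of all genes) and 5 without the 3 high-striatal libraries (15.2% of all genes), and 2 to 13 without 1 library, with 13 without Q808-2 (11.8% of members, 9.26% of all genes). For Q808 against Con. the count was 3, and ran from 1 without Q808-1 (2.34% of all genes) to 9 without Q808-2 (8.18% of members, 13.5% of all genes). With the block, 4 members were called for Q808 against Con. (3.64% of members, 7.52% of all genes). The numbers did not pair Q808 rats (r = -0.295 and 0.322 with PTZ, -0.379 and 0.527 with Con.), so for these comparisons they are shared numbers only. The members' median minus that of all genes was 0.029 after quantile normalization against -0.126 for Q808 against PTZ. The causes were not tested. No called gene changed sign under the alternatives run. Of the other recomputed values of genes and lists, 2386 stayed on their side of the threshold or within its spread, 34 came under a p of 0.05, 31 no longer did and 42 list values moved. A correction for protein length was not run. Fits with 1 Q808 library assume that it varies like the other groups. With 2 Q808 rats, no exact permutation test can go below 0.10.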
